A study of Mus musculus with 2 samples.

Results

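The genes described here are 8 genes used as landmarks of the hippocampus and dentate gyrus, namely Prox1, Zbtb20, C1ql2, Dsp, Nr3c2, Lef1, Lhx2 and Lhx9. They were chosen by symbol, and all 8 were found among the 28001 features of both deposited count matrices. The levels were followed through excitatory neurons, progenitors, glia and GABAergic cells of the newborn mouse forebrain. The study compared wild-type animals and Gmnc-/- littermates, all C57BL/6J and all taken at postnatal day 0 (P0). Gmnc encodes a geminin-related regulator that switches on the multiciliation programme. Lateral and dorsal cortex with the hippocampus was dissected from both hemispheres of 4 animals per genotype, drawn from 2 litters, and pooled by genotype before dissociation. Each pool gave 1 10x Genomics 3′ v3.1 library, and no mark in the files ties a cell to its animal. With 1 library per genotype there is no replicate check, so the values compare the libraries, no p-value is given, and every interval is an exact 95% interval that covers counting error only.

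The hippocampus forms at the medial edge of the cortex, next to the Wnt-secreting cortical hem. Dentate granule neurons are made by progenitors that leave the ventricle and migrate to the site of the future dentate gyrus, and they go on being made after birth. Prox1 is a homeobox factor that sets granule cell identity, and it is also made by interneurons of the caudal ganglionic eminence (CGE). Zbtb20 is a zinc finger repressor that specifies pyramidal neurons of the Ammon's horn (CA) fields and is also made in glia. Lef1 is a nuclear effector of Wnt signalling that the dentate gyrus needs to form, and brain endothelial cells use the same pathway to build their barrier. Lhx2 is a LIM-homeodomain selector of cortical against hem fate, and Lhx9 is its closest relative. Nr3c2 is the mineralocorticoid receptor, C1ql2 is a secreted protein of mossy fibre synapses, and Dsp encodes desmoplakin, a desmosome protein that marks mature granule neurons.

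The wild-type library held 10592 cells after filtering, with a median of 6022 UMIs (unique molecular identifiers, each standing for a captured RNA molecule), and the knockout library held 20853 with a median of 4477. Called doublets made up 3.16% of wild-type and 20.3% of knockout cells before removal. The rates expected from the barcode numbers were 10.4% and 22.1%. Whether doublets were missed in the wild-type library was not tested. Cells with Xist and no Y-linked counts numbered 7150 and 9525, and cells with Y-linked counts and no Xist numbered 1594 and 5360. The libraries shared 85 barcodes, 0.652% of those in wild-type and 0.307% of those in knockout. Gmnc itself was counted 66 times in wild-type and 86 times in knockout cells, 0.822 and 0.81 CPM (counts scaled to a common total). The deleted part of the gene is not given in the labels, and a 3′ count outside it checks nothing about the genotype. Erythroid-like cells, which should lack forebrain genes, held Zbtb20 at 107 CPM in wild-type and 448 CPM in knockout, and this level is taken as the background. In those cells 59.6% of 8090 measured genes were 1.5-fold or more higher in the knockout and 7.65% lower, and 3 of 3 measured members (Prox1, Zbtb20 and Lhx2) were among the higher ones. Microglia-like cells held Zbtb20 at 135 and 240 CPM. Whether counts of this size are free RNA or expression was not tested.

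The promoter windows are shown for the members that hold a Tcf/Lef core motif, since Lef1, the factor of that motif, is a member itself. All 8 members matched the RefSeq table of GRCm38.p6, with 13 windows of 250 bases before an annotated start. The motifs searched were the letters CTTTG followed by AA, AT, TA or TT, on both strands. The window of Lhx9, on the minus strand at chr1:138842445-138842694, held a pair of matches, 177 and 117 bases before a RefSeq start that lies inside the GENCODE span of the gene. It covers 13 bases annotated as exon. One window of Lef1, before an internal start at chr3:131156044-131156293 on the plus strand, held 1 match on the opposite strand, 147 bases before the start. Capitals mark the matches.
Lhx9: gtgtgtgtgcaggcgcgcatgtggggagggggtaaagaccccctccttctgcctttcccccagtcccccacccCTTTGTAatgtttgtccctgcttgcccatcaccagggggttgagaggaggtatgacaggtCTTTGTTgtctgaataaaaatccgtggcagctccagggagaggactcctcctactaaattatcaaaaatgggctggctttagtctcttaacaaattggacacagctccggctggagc
Lef1: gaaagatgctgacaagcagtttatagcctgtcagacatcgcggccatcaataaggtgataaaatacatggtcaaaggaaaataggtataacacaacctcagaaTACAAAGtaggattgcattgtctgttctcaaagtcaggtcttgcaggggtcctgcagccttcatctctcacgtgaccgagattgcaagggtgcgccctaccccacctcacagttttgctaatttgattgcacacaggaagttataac
Of all 32851 RefSeq windows of this length, 4874 (14.8%) held such a match. The 3 other Lef1 windows and both Prox1 windows held none of these letters.

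**Figure D1:**
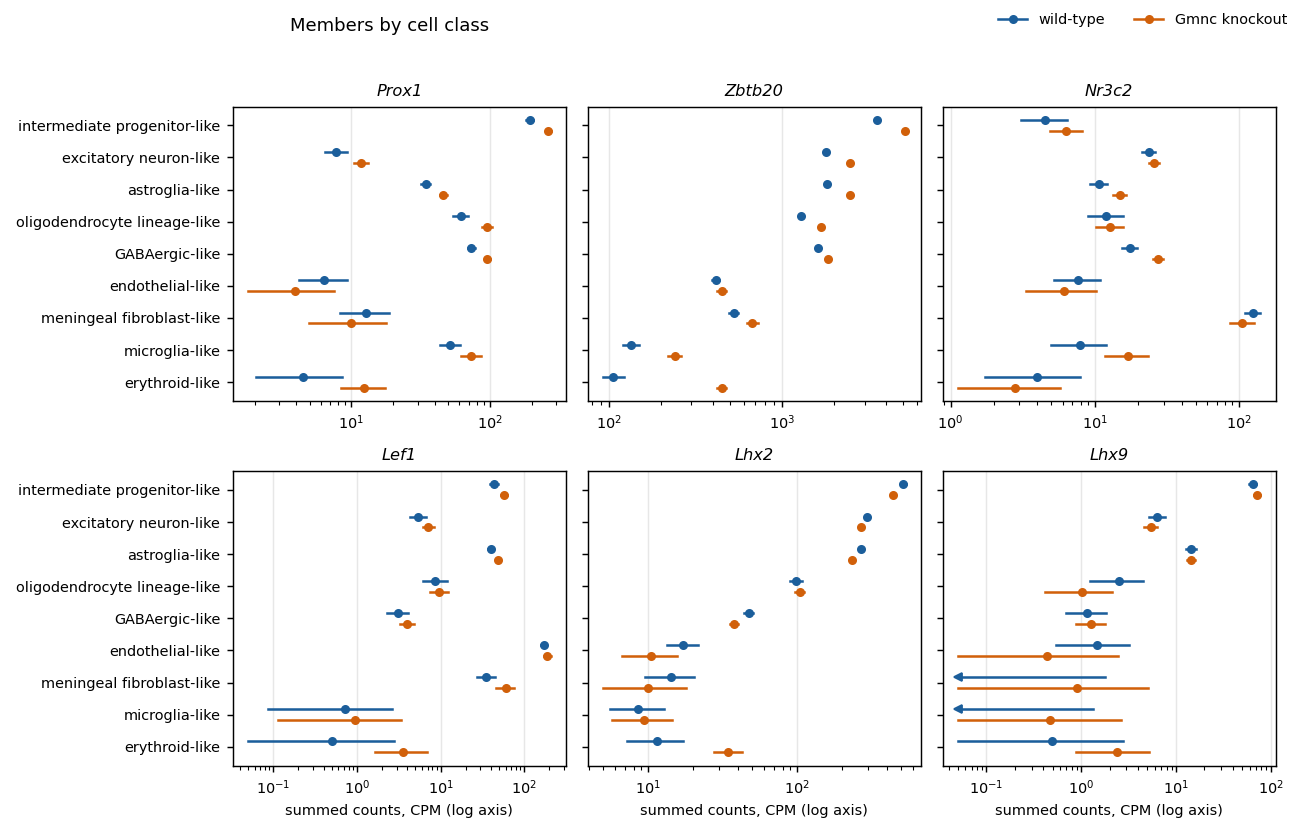
Level of 6 members in each cell class, as CPM of summed counts on a log axis, wild-type and knockout in separate colours; lines are exact 95% Poisson intervals, arrows mark 0 counts, and values below 0.05 CPM are drawn at 0.05. Prox1, Zbtb20, Lhx2 and Lhx9 sit highest in intermediate progenitor-like cells and Lef1 in endothelial-like cells.

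Prox1 lay mostly outside the excitatory neuron-like class. Its locus is chr1:190118035-190170714, minus strand, in mm10. Intermediate progenitor-like cells held it at 193 CPM in wild-type and 263 CPM in knockout, and GABAergic-like cells at 73.1 and 95.5 CPM. Oligodendrocyte lineage-like cells followed with 61.2 and 95 CPM, then astroglia-like cells with 34.4 and 46.0 CPM. Excitatory neuron-like cells stood at 7.78 and 11.8 CPM, close to the erythroid-like 4.48 and 12.4 CPM, while microglia-like cells held 51.3 and 72.9 CPM. Of all Prox1 UMIs in the wild-type library, intermediate progenitor-like cells held 34.0%, GABAergic-like cells 29.2% (27.7 to 30.6) and excitatory neuron-like cells 3.12%. In the knockout these shares were 33.7%, 34.1% (33.0 to 35.1) and 4.24%. These progenitor-like and GABAergic-like cells together held most of the Prox1 counts of either library. The annotation of Prox1 overlaps that of an antisense gene, Prox1os, over 419 bases, and the sources used here do not say whether the counting used strand, so reads from the overlap cannot be told apart.

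Within the intermediate progenitor-like class, 1 cluster with Slit3 and Mctp1 among its leading genes carried Prox1 above all other clusters measured. It held 85 wild-type and 155 knockout cells, and its Prox1 level was 1042 CPM (961 to 1128) and 1105 CPM (1031 to 1183). The knockout over wild-type ratio was 1.06 (0.954 to 1.18), an interval that includes 1. After thinning each cell to 2000 UMIs, 69 of 80 wild-type cells (86.2%) and 108 of 134 knockout cells (80.6%) had a Prox1 UMI, against 0.82% and 0.93% of erythroid-like cells. Median depths of the thinned cells were 7413 and 5158 UMIs in the cluster and 6330 and 4745 in erythroid-like cells before thinning. The cluster also held Neurod1, a granule lineage factor, at 1537 and 1233 CPM and Calb2, the calretinin of immature granule neurons, at 746 and 517 CPM. Neither was particular to it, since the Zfp385b-led cluster described below held Neurod1 at 1240 and 1340 CPM and Calb2 at 599 and 585 CPM. Of other granule lineage genes listed, Tac2 was at 84.7 and 47.0 CPM, while Calb1 had 1 and 1 UMIs and Dock10 0 and 2. In this class only the granule lineage and young migrating neuron lists were scored as subtypes, and the CA field and layer lists were not. Of that pair the granule lineage list fitted better, at 0.78 against 0.39. Its score lay below the minimum of 1.0 for a subtype name, so the cluster is unnamed and is called Mctp1-led below. The proliferation gene Mki67 had 1 UMI there in wild-type and 6 in knockout. Eomes, an intermediate progenitor marker, was at 61.0 and 76.6 CPM, against 366 and 569 CPM in the Top2a-led cluster of the class. Its place in the progenitor-like class thus does not make it a cluster of progenitors.

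The neighbouring cluster led by Slit3, Zfp385b and Calb2 met the markers of young migrating neurons and held 104 wild-type and 291 knockout cells. Its Prox1 level was 292 CPM in wild-type and 393 CPM in knockout, a ratio of 1.34 (1.17 to 1.55). The cycling progenitors, led by Top2a, stood at 94.4 and 145 CPM. Over the 49 clusters with 50 or more cells in both libraries, the order of Prox1 was the Mctp1-led cluster, the Zfp385b-led cluster, CGE interneuron-like cells and then an astroglia-like cluster led by Adamts19. In wild-type the intervals of the Zfp385b-led cluster and the CGE interneuron-like cells overlapped, and in knockout no neighbours among these 4 did. The median cluster held 24.6 CPM in wild-type and 31.4 CPM in knockout. The genes whose level most resembled Prox1 over 47 clusters and classes were Prox1os (Pearson r 0.83 in wild-type, 0.88 in knockout), Chd7 (0.82 and 0.82) and Gadd45g (0.75 and 0.78). These points come from the same pair of libraries and share their depth and free RNA.

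**Figure D2:**
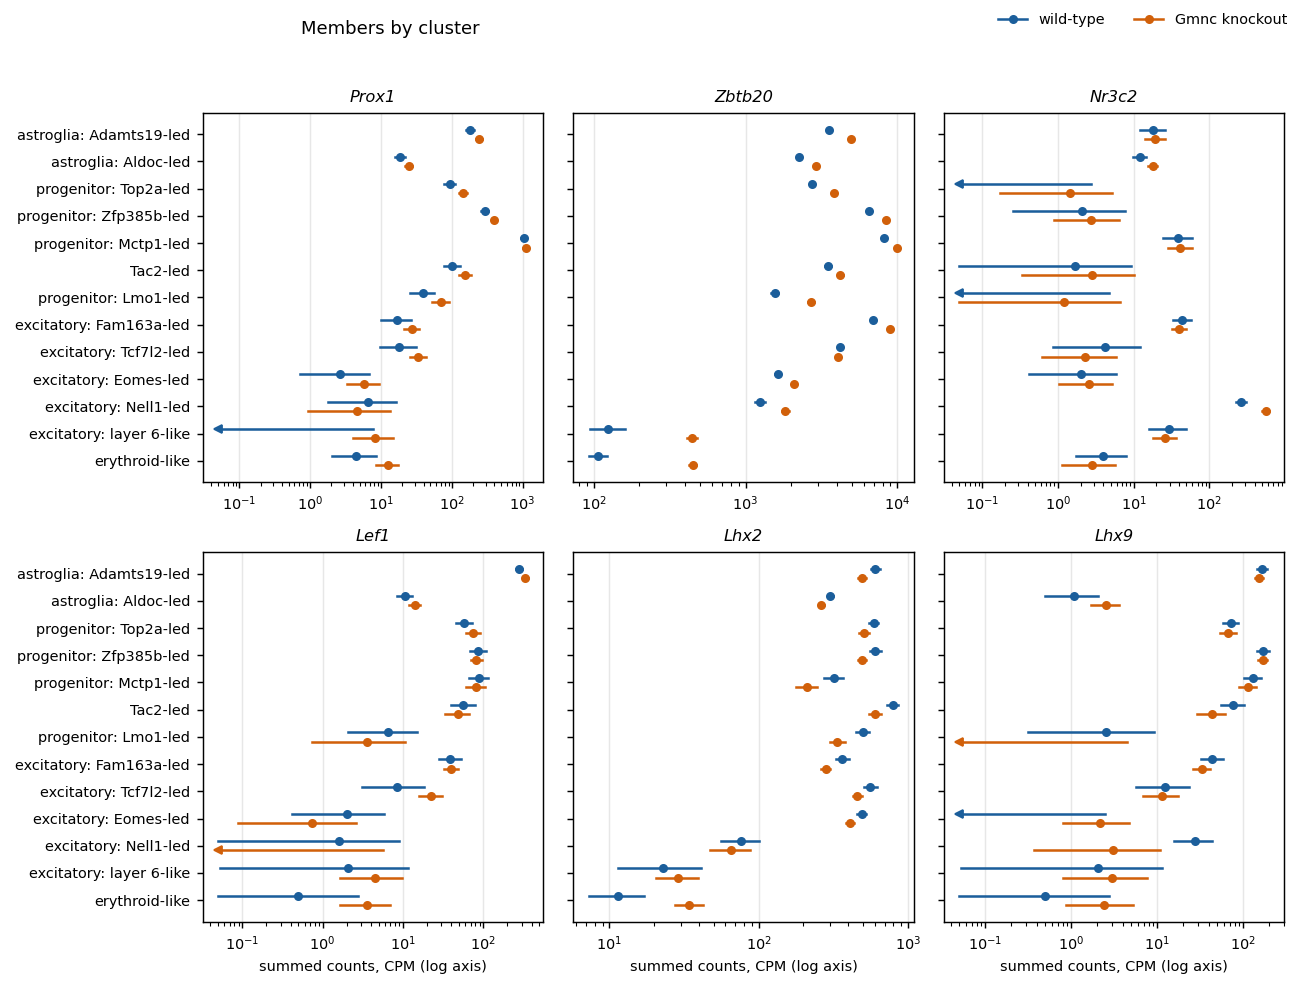
Level of 6 members in selected clusters, as CPM of summed counts on a log axis with exact 95% Poisson intervals, wild-type and knockout in separate colours; arrows mark 0 counts, drawn at 0.05 CPM. Clusters labelled progenitor are those of the intermediate progenitor-like class. Prox1 peaks in the Mctp1-led cluster of that class (1042 and 1105 CPM). Lef1 peaks in the Adamts19-led astroglia-like cluster (280 and 332 CPM) and Nr3c2 in the Nell1-led excitatory cluster (261 and 553 CPM).

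Among GABAergic-like cells, Prox1 was at its highest in CGE interneuron-like cells. CGE interneuron-like cells, which numbered 223 in wild-type and 701 in knockout, held 253 and 301 CPM, a ratio of 1.19 (1.02 to 1.39). After thinning, 38.7% and 40.0% of them had a Prox1 UMI. Interneuron-like cells of the medial ganglionic eminence (MGE) led by Lhx6 held 67.2 and 85.0 CPM. Cycling clusters also held much of it, since those led by Cenpf and by Hist1h1b gave 167 and 184 of the 1131 wild-type Prox1 UMIs of the class, at 75.2 and 79.1 CPM, and CGE interneuron-like cells gave 218. The 4 striatal-like clusters lay between 2.93 and 10.3 CPM in wild-type and between 8.43 and 14.4 CPM in knockout, near the erythroid-like background. CGE interneuron-like cells made up 2.11% of wild-type and 3.36% of knockout cells. A small cluster led by Sst had 222 CPM in wild-type and 75.2 CPM in knockout from 45 and 21 Prox1 UMIs, a ratio of 0.338 (0.191 to 0.579). The marker lists named it MGE interneuron, at a score of 3.24 against 1.72 for the CGE list. Its markers were mixed, so it is called Sst-led here. It held the CGE marker Adarb2 at 5330 and 6239 CPM and the MGE marker Lhx6 at 69.2 and 96.7 CPM, where the Lhx6-led cluster held 144 and 290 CPM of Adarb2. Sst, the somatostatin of MGE interneurons, was at 104 CPM in its 45 wild-type cells and 1884 CPM in its 66 knockout cells, so the libraries differed in its makeup as well.

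**Figure D3:**
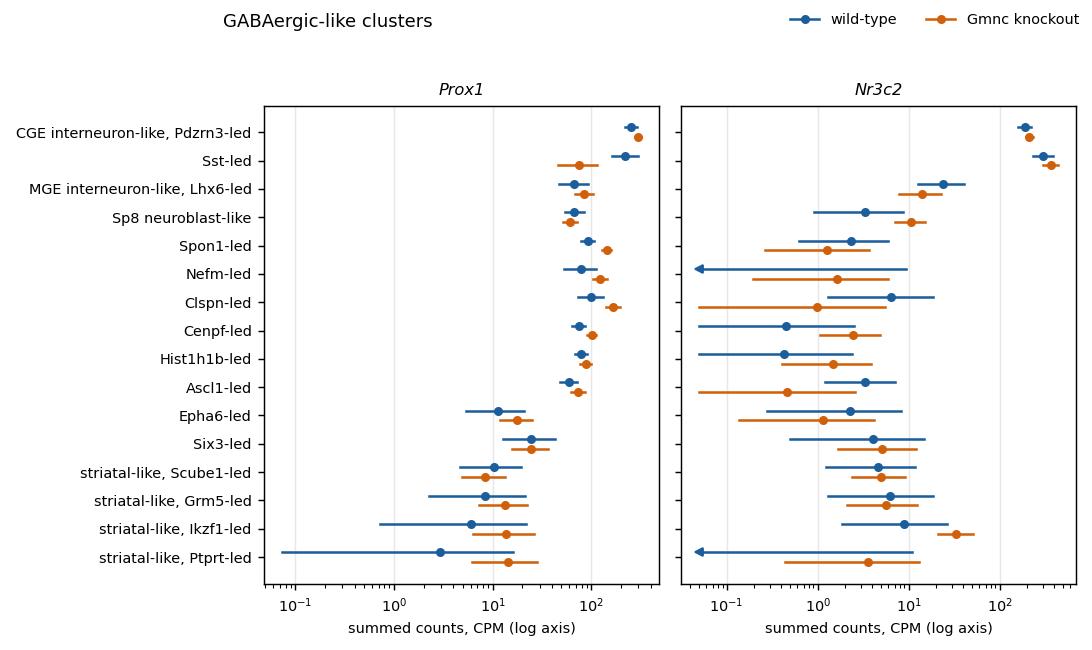
Prox1 and Nr3c2 in the GABAergic-like clusters, as CPM of summed counts on a log axis with exact 95% Poisson intervals, wild-type and knockout in separate colours; arrows mark 0 counts, drawn at 0.05 CPM. Both members are high in CGE interneuron-like cells, Prox1 in the Sst-led cluster is at 222 CPM in wild-type and 75.2 CPM in knockout, and Prox1 is near background in striatal-like cells.

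Over all cells Prox1 was at 48.3 CPM in wild-type and 70.4 CPM in knockout, a ratio of 1.46 (1.4 to 1.51). The excitatory neuron-like class was made of different clusters in each library, with 399 wild-type and 37 knockout cells in an Insm1-led cluster, 58 and 594 in a Grem1-led one and 29 and 348 in an Adamts2-led one, and this holds for every ratio of the class. The Prox1 ratio was 1.51 (1.22 to 1.88) in excitatory neuron-like cells, 1.37 (1.28 to 1.46) in intermediate progenitor-like cells and 1.55 (1.34 to 1.79) in oligodendrocyte lineage-like cells. Astroglia-like cells had a ratio of 1.34 and GABAergic-like cells of 1.31. Of 43 clusters and classes with enough Prox1 counts, 35 were higher in the knockout and 8 lower, and the interval lay above 1 in 18 and below 1 in 1. The cluster with the highest Prox1 level, the Mctp1-led one, was not among those 18. Beside these ratios stands the erythroid-like background, which was also higher in the knockout, 4.48 against 12.4 CPM. Its part in the ratio was not tested.

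Zbtb20 was counted in nearly every class. Its locus spans 766722 bases, chr16:42875881-43642602 on the plus strand in mm10, and 4.01% of the span is exonic. Intermediate progenitor-like cells held it at 3526 CPM in wild-type and 5115 CPM in knockout, and astroglia-like cells at 1810 and 2462 CPM. Excitatory neuron-like cells were at 1803 and 2464 CPM and GABAergic-like cells at 1603 and 1845 CPM. The excitatory average hid a wide spread between clusters. A cluster led by Slit3, Fam163a and Rerg, 176 wild-type and 469 knockout cells, reached 6869 and 8883 CPM. Layer 6-like cells held 124 and 444 CPM and layer 5-like cells 125 and 347 CPM, which is near the erythroid-like level of the same library.

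The highest Zbtb20 level of the 49 clusters was in the Mctp1-led cluster, 8205 CPM in wild-type and 9913 CPM in knockout. The Fam163a-led excitatory cluster came next, and the Zfp385b-led cluster with 6454 and 8477 CPM followed, with no overlap of intervals between these neighbours in either library. The Fam163a-led cluster held little Prox1, 16.7 and 27.6 CPM. Of the CA field genes listed, the kainate receptor gene Grik4 was at 219 and 318 CPM there. In the Mctp1-led cluster it was at 264 and 286 CPM. Grik4 was not particular to them, at 157 and 152 CPM in the oligodendrocyte lineage-like cluster led by Lhfpl3. In the Fam163a-led cluster Wfs1 had 2 and 1 UMIs and Fibcd1 0 and 3. That cluster is unnamed, with young migrating neurons as its best subtype list at 0.42. The CA pyramidal list scored no higher there than the next list, layer 5, at 0.041. The granule lineage genes Neurod1 and Calb2 were at 377 and 372 CPM and at 260 and 269 CPM. High Zbtb20 thus occurred with very high Prox1 in the Mctp1-led cluster and with low Prox1 in the Fam163a-led one. Outside these lineages, the striatal-like cluster led by Isl1 held Zbtb20 at 3766 and 4208 CPM. The genes nearest to Zbtb20 over 47 clusters and classes were Epha4 (r 0.82 and 0.79), Kif21a and Gpr137c.

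Zbtb20 was higher in the knockout library in all cells, 1608 against 2299 CPM, a ratio of 1.43 (1.42 to 1.44). By class, from high to low, it was measured in intermediate progenitor-like (1.45), excitatory neuron-like (1.37), astroglia-like (1.36), oligodendrocyte lineage-like (1.31) and GABAergic-like cells (1.15). It was 4.20 (3.63 to 4.89) in erythroid-like cells, where the background is read. Over 47 clusters and classes it was higher in 42 and lower in 5, with intervals above 1 in 38 and below 1 in 2. Genes with a long span were higher in the knockout library as a group. Over all cells the median log2 ratio, with 5 CPM added, was -0.018 for genes under 30000 bases and 0.24 for the 586 genes of 300000 bases or more, of which 87.7% lay below the 0.51 of Zbtb20. In GABAergic-like cells the long genes had a median of 0.18 and 54.5% of them lay below the 0.20 of Zbtb20. The part that free RNA and gene span play in the Zbtb20 ratio was not tested.

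**Figure D4:**
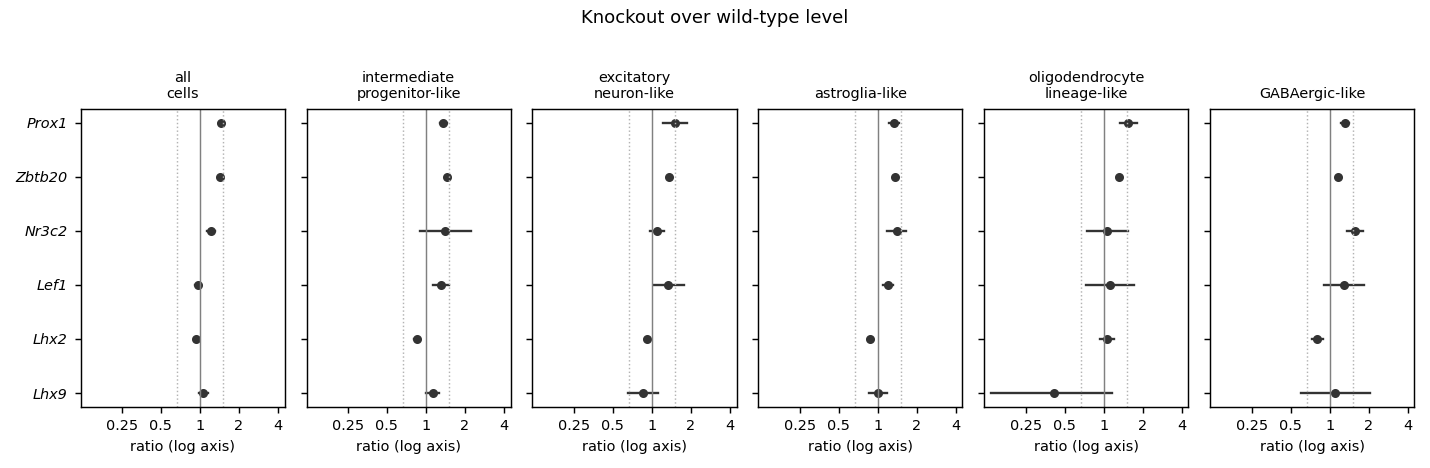
Knockout over wild-type ratio of CPM for 6 members in all cells and 5 classes on a log axis; points are ratios, lines exact 95% conditional intervals, dotted lines mark 1.5-fold in each direction, and a member with under 10 UMIs in both libraries is not drawn. Prox1 and Zbtb20 lie above 1 in each panel and Lhx2 below 1 in all but the oligodendrocyte lineage-like panel.

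Lef1 was concentrated in an astroglia-like and an endothelial-like cluster. Its locus is chr3:131110471-131224356 on the plus strand in mm10. The endothelial-like cluster held it at 170 CPM in wild-type and 188 CPM in knockout, a ratio of 1.11 (0.978 to 1.25), and accounted for 32.9% and 16.1% of its UMIs. The endothelial-like cells themselves numbered 231 of 10592 and 172 of 20853. The Adamts19-led astroglia-like cluster held 280 CPM (254 to 307) in wild-type and 332 CPM (309 to 358) in knockout, a ratio of 1.19 (1.05 to 1.34), and accounted for 20.6% and 26.8% of the UMIs. The astroglia-like cluster led by Aldoc, an astrocyte enzyme gene, held 10.6 and 14 CPM. Over all cells Lef1 was 26.2 and 25.3 CPM, a ratio of 0.963 (0.909 to 1.02), while the ratio was 1.20 (1.10 to 1.31) in astroglia-like, 1.31 (1.14 to 1.52) in intermediate progenitor-like and 1.34 (1.03 to 1.76) in excitatory neuron-like cells. It was 1.28 (0.903 to 1.84) in GABAergic-like and 1.11 (0.733 to 1.7) in oligodendrocyte lineage-like cells. The whole-library ratio lay below 1 and these class ratios above it, though its interval and those of the last pair included 1. The share of endothelial-like cells was 2.18% in wild-type and 0.825% in knockout, and its part in the whole-library ratio was not tested.

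The Adamts19-led cluster, 153 wild-type and 334 knockout cells, stood out for several members at once. Its Lhx9 level was 168 and 153 CPM and its Prox1 level 182 and 244 CPM. Zbtb20 was at 3554 and 4930 CPM, and Lhx2 at 607 and 491 CPM. Axin2, a feedback gene of Wnt signalling, was at 78.2 and 122 CPM there, the dorsal regulator Emx2 at 221 and 304 CPM and Mki67 at 206 and 301 CPM. It made up 1.44% of wild-type and 1.60% of knockout cells. The thalamic list was its next-best fit, at a score of 0.92 against 2.90 for apical progenitors. Of that list, Gbx2 had 1 UMI in its wild-type and 0 in its knockout cells. The Aldoc-led cluster had 0 Gbx2 UMIs in wild-type, so this gene hardly tells the clusters apart. Tcf7l2, of the same list, was at 99.5 CPM in wild-type, against 153 CPM in the Aldoc-led cluster. The endothelial Cldn5 had 1 and 7 UMIs in the Adamts19-led cluster. A knockout-heavy progenitor cluster also led by Adamts19 (22 and 127 cells) had 275 and 416 CPM of Prox1, 99.8 and 196 CPM of Lef1, and 140 and 179 CPM of Lhx9. In meningeal fibroblast-like cells Lef1 was 35.1 and 59.8 CPM, a ratio of 1.70 (1.20 to 2.41).

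Lhx9, on the minus strand at chr1:138825186-138848577 in mm10, was highest in clusters of the intermediate progenitor-like class and in the Adamts19-led cluster. Intermediate progenitor-like cells held 49.1% of its UMIs in wild-type and 54.9% in knockout, and astroglia-like cells 32.5% and 29.1%. The first 3 of 49 clusters were the Zfp385b-led one (173 and 170 CPM), the Adamts19-led one (168 and 153 CPM) and the Mctp1-led one (130 and 114 CPM), and the intervals of neighbours among them overlapped in both libraries. The median cluster was at 1.82 and 1.35 CPM. The Aldoc-led astroglia-like cells held 1.1 and 2.55 CPM and the Fam163a-led excitatory cluster 44.1 and 33.2 CPM. Over all cells Lhx9 was 11.2 and 11.9 CPM, a ratio of 1.07 (0.977 to 1.16). In 9 of the 10 clusters and classes with enough counts it was lower in the knockout and in 1 higher, with intervals below 1 in 2 and above 1 in 1. The intermediate progenitor-like class as a whole went the other way, 64.4 and 72.5 CPM, a ratio of 1.13 (0.997 to 1.27). The genes nearest to Lhx9 were Rerg (r 0.86 and 0.85), Adamts19 (0.76 and 0.84) and Nhlh2 (0.76 and 0.77), and its correlation with Lef1 over the same 47 points was 0.70 and 0.67.

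Some pairs of members were found together in single cells at a higher share than in cells without the partner, and others were not. Among astroglia-like cells thinned to 2000 UMIs, 13 of 42 wild-type cells with a Lhx9 UMI (31.0%) also had a Lef1 UMI, against 95 of 1800 without one (5.28%). In the knockout these were 49 of 90 (54.4%) and 204 of 3510 (5.81%). Among intermediate progenitor-like cells, Prox1 was found in 34 of 74 wild-type cells with Lhx9 (45.9%) and in 143 of 680 without (21.0%), and in 99 of 180 (55.0%) and 338 of 1394 (24.2%) in the knockout. For Lhx2 the shares hardly differed, since Prox1 was found in 23.7% of wild-type intermediate progenitor-like cells with Lhx2 and 23.2% of those without, and in 27.5% and 28% in the knockout. Other pairs went the opposite way. In wild-type GABAergic-like cells Zbtb20 was found in 59.1% of those with Nr3c2 and 88.7% of those without, and in the knockout in 76% and 91.5%. The cells of a class come from the same library, so these shares describe the libraries.

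Lhx2 was highest in progenitors and young excitatory neurons and low in GABAergic-like cells. Its locus is chr2:38339281-38369733 on the plus strand in mm10. Intermediate progenitor-like cells held it at 519 CPM in wild-type and 442 CPM in knockout, excitatory neuron-like cells at 297 and 271 CPM, astroglia-like cells at 268 and 234 CPM and GABAergic-like cells at 47.4 and 38.0 CPM. A Tac2-led cluster of the intermediate progenitor-like class (71 and 137 cells) led the 49 clusters with 790 and 606 CPM, and the next places overlapped. Haemoglobin genes such as Hba-a1 and Hba-a2 were among its leading genes. The erythroid list scored 1.39 in it, above the 1.22 of young migrating neurons, so it stays unnamed. Eomes, an intermediate progenitor marker, was at 389 and 729 CPM there. The genes nearest to Lhx2 were Emx1 (r 0.90 and 0.90), Dmrta2 (0.89 and 0.91) and Ntng2 (0.85 and 0.88), the first 2 being regulators of the dorsal telencephalon.

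Lhx2 was lower in the knockout in most clusters. In all cells it was 198 and 184 CPM, a ratio of 0.931 (0.911 to 0.950). The ratio was 0.911 (0.878 to 0.946) in excitatory neuron-like, 0.853 (0.816 to 0.892) in intermediate progenitor-like, 0.870 (0.839 to 0.903) in astroglia-like and 0.802 (0.728 to 0.883) in GABAergic-like cells. It was lower in 34 of 47 clusters and classes and higher in 13, with intervals below 1 in 20 and above 1 in 2. The Insm1-led excitatory cluster gave 780 wild-type and 36 knockout Lhx2 UMIs, at 415 and 338 CPM. In the Mctp1-led cluster Lhx2 was 319 and 211 CPM, 0.662 (0.532 to 0.823). The Lhx2 ratio differed between female-pattern and male-pattern cells, though not in the same direction in every class. Among female-pattern cells Lhx2 was 192 and 194 CPM in all cells, a ratio of 1.01 (0.985 to 1.04), and among male-pattern cells 248 and 187 CPM, a ratio of 0.753 (0.721 to 0.786). In excitatory neuron-like cells these ratios were 1 (0.957 to 1.05) and 0.685 (0.634 to 0.741), in intermediate progenitor-like cells 0.898 and 0.749, in astroglia-like cells 0.921 and 0.782, and in GABAergic-like cells 0.754 and 0.974. Prox1, in contrast, was 1.43 and 1.58 and Zbtb20 1.44 and 1.35 over all female-pattern and all male-pattern cells. The part of sex, and of the single animals behind each pattern, in the Lhx2 ratio was not tested.

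**Figure D5:**
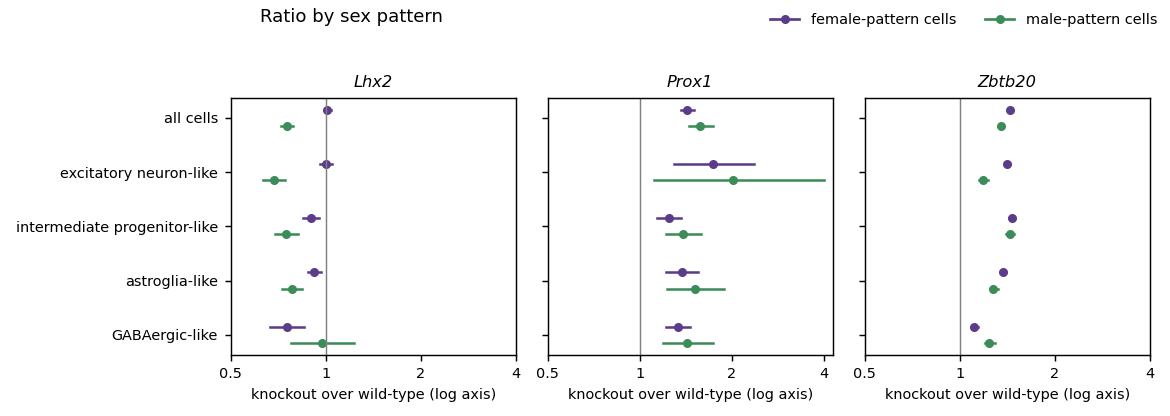
Knockout over wild-type ratio of Lhx2, Prox1 and Zbtb20 in cells with a female and a male pattern of Xist and Y-linked counts, on a log axis with exact 95% conditional intervals. For Lhx2 in all cells the female-pattern point is at 1.01 and the male-pattern point at 0.753, while Prox1 and Zbtb20 lie above 1 in both patterns over all cells.

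Nr3c2 was sparse and sat in a few clusters. Its locus spans 345571 bases, chr8:76899442-77245012 on the plus strand in mm10. A small excitatory cluster led by Fam19a1, Nell1 and Slit3 (75 and 142 cells) held it at 261 CPM (223 to 305) in wild-type and 553 CPM (497 to 613) in knockout, a ratio of 2.12 (1.75 to 2.56). After thinning, 24.6% and 30.8% of its cells had a Nr3c2 UMI. CGE interneuron-like cells were the second of the 49 clusters in both libraries, with 188 and 213 CPM and a ratio of 1.13 (0.947 to 1.36). The Sst-led cluster of mixed markers, left out of that order with 45 wild-type cells, held 302 and 365 CPM. In the Nell1-led cluster Lhx9 was 27.4 and 3.05 CPM from 17 and 2 UMIs, a ratio of 0.111 (0.0124 to 0.468), so the libraries differed there in this member as well.

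Over GABAergic-like cells as a class, Nr3c2 was 17.5 CPM in wild-type and 27.4 CPM in knockout, a ratio of 1.56 (1.36 to 1.81). CGE interneuron-like cells gave 162 of the 271 Nr3c2 UMIs of the class in wild-type and 519 of 731 in knockout, and they were a larger share of the knockout cells, as given above. Within them the interval of the ratio included 1. Thinned GABAergic-like cells with Nr3c2 also held Prox1 in 17 of 44 cases in wild-type (38.6%) and 50 of 129 in knockout (38.8%), against 238 of 2133 (11.2%) and 673 of 5107 (13.2%) of those without. Over all cells Nr3c2 was 16.7 and 20.3 CPM, a ratio of 1.21 (1.13 to 1.3). On the log2 scale with 5 CPM added this was 0.22, and 47.1% of the genes of 300000 bases or more lay below it. Of 25 clusters and classes with enough counts, 17 were higher in the knockout and 8 lower, with intervals above 1 in 8 and below 1 in 3. The widest ratio was 7.71 (3.03 to 25.1) in an unnamed excitatory cluster led by Ccbe1, from 5 and 38 UMIs. In meningeal fibroblast-like cells it was 124 and 105 CPM, and the cluster led by Ptgds among them had 102 and 31.1 CPM, a ratio of 0.304 (0.175 to 0.498).

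Dsp and C1ql2 were near absent at this age. Dsp, at chr13:38151294-38198577 on the plus strand in mm10, had 31 UMIs in 24 wild-type cells and 37 UMIs in 30 knockout cells, 0.386 and 0.348 CPM, a ratio of 0.902 (0.545 to 1.5). Cajal-Retzius-like cells, the Reelin-secreting neurons of the cortical surface, gave 10 of the 31 wild-type UMIs from 38 cells, a level of 26.9 CPM, and endothelial-like cells gave 9 and ependymal-like cells 5. Only 3 knockout cells fell in that class and held 0, where 3 counts would be 247 CPM, so no level could be read. In intermediate progenitor-like cells Dsp was counted 2 and 13 times, a ratio of 4.64 (1.05 to 42.4), and 10 of the knockout counts were in the Zfp385b-led cluster. C1ql2, at chr1:120340582-120343174 on the plus strand in mm10, had 9 wild-type and 7 knockout UMIs, each in a cell of its own, and it did not reach the 10 UMIs set for a ratio. Mature granule neurons were not detectable through either gene at this depth.

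The members were also read as a list. A gene counted as past the fold when its CPM ratio was 1.5 or more in either direction with 10 or more UMIs in at least 1 library. In all cells 0 of the 7 measured members were past it, where 10.8% of 19347 genes were higher and 16.8% lower, and the median log2 ratio was 0.064 for the members and 0.0082 for all genes. The median covers members on both sides, since Prox1 at 0.50 and Zbtb20 at 0.51 lay above 95.3% and 95.7% of all genes and Lhx2 at -0.10 lay below 0. In excitatory neuron-like cells 1 of 6, Prox1, was higher, beside 10.5% of 15663 genes higher and 8.26% lower, with medians of 0.17 and 0.035. That count was 0 with looser cell filters, with median-of-ratios scaling and with a mean over cells. In intermediate progenitor-like cells 1 of 7, Dsp, was higher, beside 17.7% of 13870 genes higher and 7.27% lower, with medians of 0.26 and 0.13. In astroglia-like cells 0 of 6 were past it, beside 14.6% of 16054 higher and 6.3% lower, with medians of 0.29 and 0.087. In oligodendrocyte lineage-like cells Prox1 was higher and Lhx9 lower (11 and 7 UMIs, 0.413, 0.136 to 1.17) of 6, beside 13.9% of 13524 higher and 6.68% lower. In GABAergic-like cells 1 of 6, Nr3c2, was higher, beside 10.9% of 15543 higher and 7.46% lower, with medians of 0.17 and 0.049. Since 0 to 2 members were past the fold in any of these classes, the counts show nothing particular to the members.

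The related pathways were read from lists of partner genes. Of all measured genes, 10.8% were past the fold upward and 16.8% downward in all cells. In intermediate progenitor-like cells these shares were 17.7% and 7.27%. The short lists were not tested against these shares, and a few genes past the fold are no result about a pathway. Of 10 Tcf/Lef factors and Wnt feedback genes, 0 were past the fold upward and 2, Nkd1 and Notum, downward in all cells. In intermediate progenitor-like cells 3 of 8 measured, Tcf7, Tcf7l1 and Axin2, were upward and 0 downward, with Axin2 at 14 and 24.5 CPM, a ratio of 1.75 (1.37 to 2.24). Of 13 granule lineage genes 0 were upward and 3 downward in all cells (Glis3, Tdo2 and Trpc6), and Neurod1 was 79.8 and 113 CPM, a ratio of 1.41 (1.37 to 1.46). Of 10 measured CA field genes, 1, Coch, was downward. Of 12 dorsal telencephalon and hem regulators 2, Lmx1a and Wnt3a, were downward, while Emx2 was 42.0 and 58.6 CPM, a ratio of 1.4 (1.34 to 1.46). Of 8 LIM-homeodomain partners 1, Lmo2, was downward. Of 8 corticosteroid receptor genes 1, Hsd11b2, was downward in all cells, and Nr3c1, the glucocorticoid receptor, was 7.01 and 13.8 CPM in intermediate progenitor-like cells, a ratio of 1.96 (1.4 to 2.79). Of 6 measured C1q-like partners 1, Nrxn3, was upward, and of 7 measured desmosome genes Evpl was upward and Jup downward.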

How the data were processed

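Both libraries were made with 10x Genomics 3′ v3.1 chemistry, per the labels' protocols, and Cell Ranger 7.1.0 and mm10 are named in the submitters' processing notes. The authors deposited raw UMI counts per gene and barcode, 88905819 in 13033 wild-type and 155482657 in 27663 knockout barcodes. The use of strand in the counting is not given in the sources used here.

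A barcode was kept at 1000 UMIs or above if mitochondrial genes made up less than 10% of them, and doublets were called per library with Scrublet in scanpy 1.11.5 at an expected 0.8% per 1000 cells and removed. Cells of both libraries were clustered together without the 8 members (2000 variable genes, 30 components, 15 neighbours, Leiden resolution 1, leidenalg 0.10.2), and again within excitatory, GABAergic and, added after seeing the data, intermediate progenitor-like cells. This gave 35 clusters, 3 of them unnamed, and 46 subclusters, 30 of them unnamed. Names came from fixed marker lists with no member among them, with minimum scores set after seeing the data, so shares may differ from the study's through these rebuilt names. Counts were summed per library and cluster and scaled to CPM. Intervals are exact (Poisson, binomial or conditional, SciPy 1.17.1 with NumPy 2.4.6) and were checked on simulated data. Log2 ratios have 5 CPM added. Thinning to 2000 UMIs left out 1841 wild-type and 2913 knockout cells. Like genes were the 3 with the highest lower value of the r in each library over 47 clusters and classes, among 7911 genes at 50 CPM or more in at least 1 of them. Loci follow GENCODE M21, which held 27645 of the 28001 features, and promoter windows follow RefSeq GRCm38.p6. Named are all members, the genes nearest to each and genes of the fixed lists. The members and lists were chosen with earlier results of these data known.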

Additional observations from a re-analysis of the deposited data

Results flagged for a closer look

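For some members the knockout over wild-type value had opposite signs in cells of the 2 sex patterns. Female-pattern cells have Xist and no Y-linked counts, and male-pattern cells have Y-linked counts and no Xist. Members were flagged in all cells and in excitatory neuron-like cells only. The values are log2 knockout over wild-type with 5 CPM added, and the difference between the patterns was not tested, since each pattern is 1 pool per genotype. Lhx2 in all cells was 0.0167 in female-pattern and -0.401 in male-pattern cells, and in excitatory neuron-like cells 0.00552 and -0.537. Lef1 in all cells was 0.0158 and -0.0599. Dsp in all cells was -0.0538 and 0.0962, from few counts. Of these flagged ratios, the interval lay off 1 for Lhx2 in male-pattern cells and for no other. Signs also differed in classes outside the flag. Lhx9 in astroglia-like cells was -0.033 and 0.484, with a male-pattern ratio of 1.66 (1.09 to 2.6). Nr3c2 in intermediate progenitor-like cells was -0.0633 and 0.362, with both intervals including 1.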

How the results depend on the processing

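No paired analysis was possible because each genotype has 1 library and its replicate number comes from accession order. The median log2 ratio of the members kept its sign under each alternative, from 0.025 to 0.16 in all cells (0.16 with a mean over cells) and from 0.079 to 0.26 in excitatory neuron-like cells. The number of members past 1.5-fold in excitatory neuron-like cells, 1, was 0 with looser cell filters, with median-of-ratios scaling and with a mean over cells, 2 in female-pattern and 2 in male-pattern cells, and 3 with no filter on low counts. The share of Prox1 UMIs in GABAergic-like cells, 29.2% in wild-type, was 25.2% with stricter filters, 27.7% with doublets kept, 31.4% in female-pattern and 22% in male-pattern cells, and 39.4% with a mean over cells. In knockout, 34.1%, it was 31.3% and 29% under the first pair of these, 31.0% in male-pattern cells, 35.4% at clustering resolution 2 and 42.4% with a mean over cells. The log2 ratio of Lhx2 changed sign in female-pattern cells, to 0.017 in all cells and 0.0055 in excitatory neuron-like cells. The cause was not tested. Over the alternatives the log2 ratio in all cells ran from 0.44 to 0.61 for Prox1 and from 0.43 to 0.53 for Zbtb20. In excitatory neuron-like cells that of Nr3c2 ran from -0.24 to 0.41, with no sign that held. Depth limits Dsp and C1ql2 to counts.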
